A study of Mus musculus with 3 samples.

Results

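The cells described here were the collagen-expressing mesenchymal and meningeal cells caught with dissected dorsal midline tissue of the embryonic mouse forebrain. A cell counted as one of them if it had at least 1000 genes, 2000 UMIs (unique molecular identifiers, each standing for 1 captured RNA molecule) and at most 10% mitochondrial UMIs, and at least 10 UMIs in all of the fibrillar collagen genes Col1a1, Col1a2 and Col3a1. It also had to stay below 20 UMIs per 10000 of Ttr, a choroid plexus gene, below 8 per 10000 of the neuronal genes Tubb3 and Stmn2, and at or below 2 UMIs of the microglial genes C1qa, C1qb and C1qc. The cells were thus chosen by their own UMI counts, and the rule found 351 among 33001. They were 77 of 9468 cells in the first wild-type library, 75 of 8158 in the second and 199 of 15375 in the Gmnc-/- library.

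Meninges are connective tissue layers that wrap the brain. Their mesenchyme builds the basement membrane that borders the neural tissue, and it secretes collagens, retinoic acid and the chemokine Cxcl12, whose receptors guide Cajal-Retzius neurons beneath the pia. Around the forebrain this mesenchyme comes largely from the neural crest, and the forkhead factor Foxc1 is needed for it to form.

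All embryos were C57BL/6J mice, and the question of the study was what the multiciliation regulator Gmnc does in the midline. The wild-type suspension pooled 4 embryos of E11.5 that carried PGKCre;Rosa26YFP, where Cre from the broadly active Pgk1 promoter switches on a yellow fluorescent protein, with 4 embryos of E12.5 that carried Wnt3aCre;Rosa26tdTomato, where Cre from the hem gene Wnt3a switches on a red one. It was run as 2 libraries, which are technical repeats and count here as 1 sample. The knockout suspension pooled 4 Gmnc-/- embryos of E12.5 and was run as 1 library. With 1 suspension per genotype there was no test between genotypes. Genotype cannot be told apart from the mixed stage of the wild type, the transgenes or the separate suspension and run of each genotype. The knockout library also had a different feature set and, per its file header, another Cell Ranger version. These cannot be told apart from genotype either. Intervals below are exact 95% intervals for counting error, Poisson for levels and Clopper-Pearson for shares.

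The median depth of the mesenchymal cells was 12057 and 14296 UMIs in the wild-type libraries and 11365 in the knockout library, beside 12332, 13443 and 9922.5 in all other cells. Their summed UMIs were 1101131, 1278953 and 3340938. The wild-type libraries shared 52 barcodes among filtered cells, and the first shared 42 and the second 28 with the knockout. Among all deposited barcodes the wild-type libraries shared 1914, and they shared 78 and 42 with the knockout. The cause of that excess was not tested. Between the 2 wild-type repeats, 1 of 3579 well-covered genes differed at least 2-fold in the mesenchymal cells, namely Slc9a3r2 at 32.7 and 66.5 CPM (counts per 1000000 UMIs of the summed cells). That count used a higher expression minimum than the genotype calls below. It also left out haemoglobin, mitochondrial, ribosomal, sex-linked and provisional genes. The 7 haemoglobin genes summed to 245 and 8951 CPM in the repeats, and to 248 and 735 CPM without the cells set aside below.

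The collagen threshold fell in a sparse region. Only 5, 3 and 11 cells had 5 to 9 collagen UMIs while meeting the other limits, and 2, 2 and 12 of the selected cells had 10 to 14, whereas the median selected cell had 49, 55 and 34. In the knockout library, cells just outside held 115 CPM of Lum and 13.2 CPM of Foxc1, and those just inside held 1037 and 73.3 CPM. The collagen minimum alone was met by 80, 77 and 234 cells. In the knockout, 22 of these failed the limit on Ttr, 12 that on neuronal genes and 4 that on C1q, and some failed more than 1 of them.

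The label was checked against markers that the rule did not use. Of 11 further mesenchyme markers, 10 were deep enough to compare, and all 10 were at least 2-fold higher than in the other cells of every library. Depth in the mesenchymal cells alone sufficed to enter, so that count follows in part from the filter. Over all 11 markers the sum was 3305, 3282 and 2172 CPM, beside 83.1, 83.2 and 114 CPM in the other cells. Of 11 meningeal markers, 5 of the 7 deep enough were higher, with the same limit. Defining genes of Schwann cell precursors (Sox10, Foxd3), skeletal muscle (Myf5, Myod1, Myog) and stratified epithelium (Krt5, Krt14, Trp63) had no UMI in any selected cell. Nor did 27 of 29 Hox genes. Other genes of these lists were found, with the 9 epithelial genes at 20.9, 20.3 and 22.1 CPM together. The 12 endothelial markers summed to 133, 115 and 251 CPM, beside 31.2, 31.6 and 31.3 CPM elsewhere. The 11 cartilage and bone markers summed to 143, 120 and 192 CPM, beside 201, 210 and 280 CPM. The 9 pericyte markers summed to 335, 285 and 175 CPM, beside 33.2, 33.5 and 33.8 CPM in the other cells. Of the 3 deep enough to compare, Pdgfrb (119, 109 and 64.1 CPM) and Vtn (160, 136 and 49.1 CPM) were higher than elsewhere and Notch3 was not. The more restricted pericyte genes were sparse, with Rgs5 at 8.17, 0.782 and 7.78 CPM, Abcc9 at 8.17, 4.69 and 6.88 CPM, and Higd1b at 0.

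The leading genes gave a meningeal picture. Among 5997 genes covered in either population, 332 (5.54%) were at least 2-fold higher in the mesenchymal cells of each library and 222 (3.7%) were lower. These are descriptions without a test, because the rule read the same counts. The collagens of the rule were among the top 5 genes by their smallest ratio over the libraries, and the other members of the top 5 were Lum, the small leucine-rich proteoglycan lumican, and Crym, which encodes the thyroid hormone binding protein mu-crystallin. Lum stood at 1458, 1461 and 688 CPM in the mesenchymal cells and at 1.21, 0.754 and 2.55 CPM in the other cells. Crym stood at 846, 833 and 569 CPM against 0.525, 0.281 and 2.06 CPM. For both genes every library of mesenchymal cells lay far above its other cells. The knockout library was the lowest of the 3 over all mesenchymal cells; without the cells set aside below this held for Lum (1617, 1637 and 1203 CPM) and not for Crym (946, 978 and 1015 CPM).

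**Figure D1:**
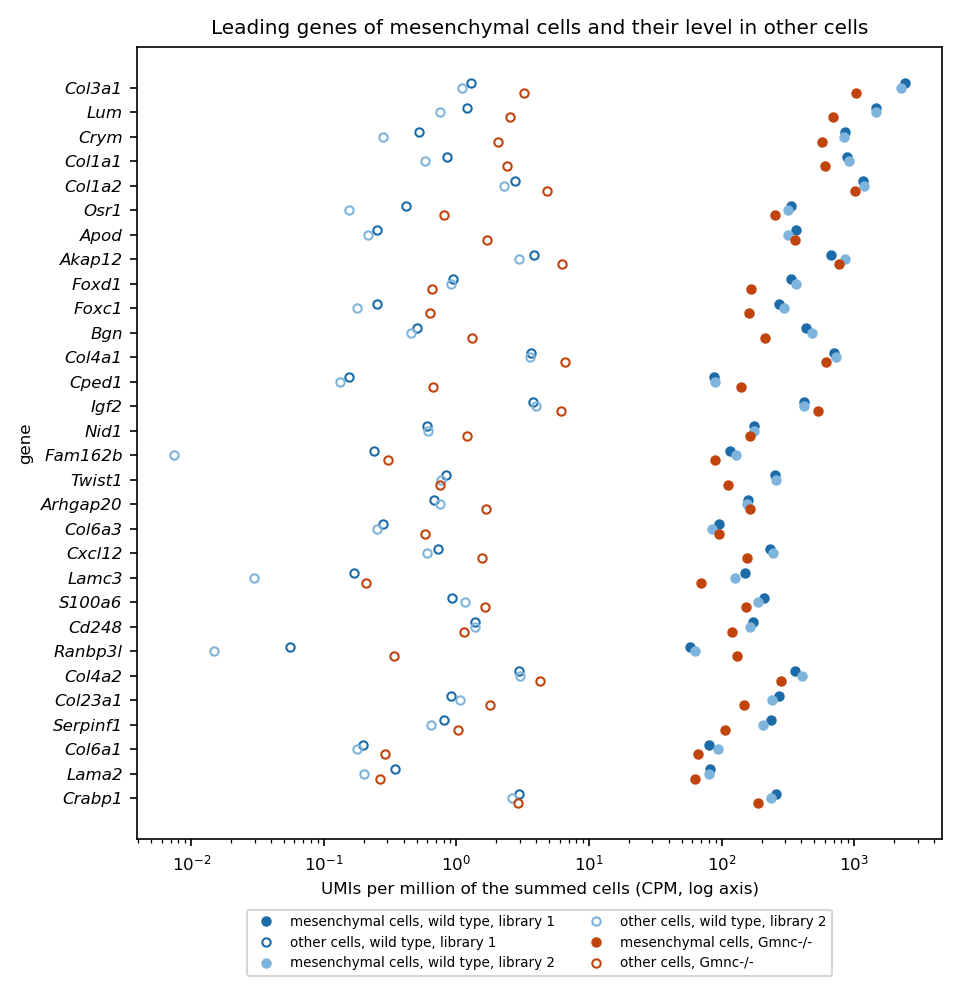
Level of the 30 leading genes in the mesenchymal cells (filled points) and in all other cells (open points) of each library, in CPM of the summed cells on a log axis. The filled points of every gene lie to the right of its open points in all 3 libraries, and the knockout points of Col3a1, Lum and Foxd1 lie left of both wild-type points.

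Transcription factors of head mesenchyme followed. Foxd1, a forkhead factor of stromal precursors, measured 335, 364 and 168 CPM, beside at most 0.938 CPM in other cells. Foxc1 measured 271, 296 and 161 CPM, and Osr1, a zinc finger factor of mesenchyme, 335, 314 and 254 CPM. Twist1, a basic helix-loop-helix factor of neural crest mesenchyme, measured 252, 258 and 111 CPM. All 4 were near absent elsewhere. In the list of 50 mesenchymal transcription factors, 21 could be compared with other cells, 9 were higher and 2 were lower, namely Ebf2 and Sox9. Depth in the mesenchymal cells alone sufficed to be compared, so the number of higher factors follows in part from the filter. Zic1, a midline zinc finger factor, was also strong in the other cells, with 597, 640 and 475 CPM against 219, 220 and 279 CPM.

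Matrix genes were mostly higher. In the list of 26 fibrillar collagens and their processing genes, 16 could be compared and 12 were higher. These 12 include the 3 collagens of the rule, which were high by selection. Of all 5997 genes compared, 5.54% were higher. In the list of interstitial matrix genes 12 of 15 were higher, and in the basement membrane list 10 of 11. No gene of these lists was lower. Depth in the mesenchymal cells alone sufficed to enter each of these counts, so they follow in part from the filter. Biglycan (Bgn), a proteoglycan that binds collagen, measured 434, 476 and 211 CPM. Col4a1, a chain of the collagen that forms basement membrane, measured 708, 730 and 613 CPM, and Nid1, which links laminin to that collagen, 174, 174 and 162 CPM. Bgn was lower in the knockout library than in both wild-type libraries, also without the cells set aside below (475, 524 and 328 CPM), while Nid1 differed little.

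Of the rule's genes, Col3a1 lies on chromosome 1 from 45311538 to 45349706 (GRCm38, GENCODE vM21). The 250 bases before the starts of Col1a2 and Col3a1 are shown because these genes define the cells. They are from RefSeq on GRCm38.p6, plus strand, at chr6:4505368-4505617 and chr1:45311288-45311537. Capitals mark CCAAT and TATAAA, searched on both strands. CCAAT was present in 33.8% of 32851 mouse promoter windows of this length and in 31.0% of the windows of genes higher in the mesenchymal cells. TATAAA was present in 12.4% and 7.83%. A match describes letters only.
Col1a2: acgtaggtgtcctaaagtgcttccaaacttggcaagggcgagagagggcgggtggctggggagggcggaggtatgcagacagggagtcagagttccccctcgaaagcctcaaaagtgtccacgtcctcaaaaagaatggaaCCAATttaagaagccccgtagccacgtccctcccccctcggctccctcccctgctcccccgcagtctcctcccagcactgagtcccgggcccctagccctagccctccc
Col3a1: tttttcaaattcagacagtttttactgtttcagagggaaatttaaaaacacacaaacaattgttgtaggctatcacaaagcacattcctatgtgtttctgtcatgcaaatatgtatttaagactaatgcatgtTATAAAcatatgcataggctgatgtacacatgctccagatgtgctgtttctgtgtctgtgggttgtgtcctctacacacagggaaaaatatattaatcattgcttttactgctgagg

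Secreted signals and their receptors were split between mesenchyme and neural tissue. Cxcl12 measured 232, 245 and 154 CPM in the mesenchymal cells and at most 1.56 CPM elsewhere. Its receptor gene Cxcr4 went the other way, with 0, 0.782 and 8.38 CPM in the mesenchymal cells and 22.1, 23.9 and 24.6 CPM elsewhere. For retinoic acid, the binding protein gene Crabp1 (258, 234 and 189 CPM) was higher than elsewhere, as was the receptor gene Rarb. The synthesis gene Aldh1a2 was low, at 9.99, 7.82 and 15.9 CPM. Of 38 genes of the Wnt list, 7 of the 21 compared were higher, among them the ligand genes Wnt4 and Wnt5a and the antagonists Sfrp2 and Frzb. The 5 lower ones were the ligand genes Wnt7b and Wnt8b and the R-spondin genes Rspo1, Rspo2 and Rspo3, whose products enhance Wnt signalling. Depth in either population sufficed to enter, so these counts too follow in part from the filter. Igf2, an insulin-like growth factor, measured 421, 414 and 537 CPM against at most 6.11 CPM elsewhere.

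Clustering the 351 cells on 1500 variable genes gave 4 sub-clusters, each present in every library, when each genotype was scaled by itself. Scaled together, the cells formed 7 clusters with an adjusted Rand index of 0.451 to these, and in 6 of the 7 one genotype held under 5% of the cells. The presence in every library thus rests on the separate scaling. The listed cell cycle, stress, glycolysis and haemoglobin genes were left out of the variable genes, as were mitochondrial and ribosomal genes. Sub-cluster 0 held 31, 20 and 65 cells and was led by Pcolce, which helps to cut procollagen, and by Nrp2, Sfrp2, Tgfbi, Dkk2 and Nrp1. Sub-cluster 1 held 22, 30 and 53 cells and was led by genes of mitosis such as Anln, Cenpe, Mki67 and Top2a. After thinning every cell to 4000 UMIs, 93.3% of its cells had a UMI of Mki67 or Top2a, beside 38.2% in sub-cluster 0 and 21.3% in sub-cluster 3.

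Sub-cluster 3, with 15, 17 and 31 cells, was led by the matrix gene Mamdc2, the gap junction genes Gjb2 and Gjb6, the ligand gene Wnt4, the natriuretic peptide receptor gene Npr3 and Cdh5, better known for endothelial cells. Gjb2 measured 79.7 CPM in its wild-type cells and 110 CPM in its knockout cells, beside at most 22.6 CPM in sub-clusters 0 and 1. Gjb6 measured 85.8 and 149 CPM. Osr1 was highest there as well, with 545 and 716 CPM against 285 and 303 CPM in sub-cluster 0, whereas Dkk2, a Wnt antagonist gene listed among meningeal layer genes, was lowest there among sub-clusters 0, 1 and 3 with 79.7 and 35.5 CPM. Cdh5 measured 91.9 and 99.3 CPM in sub-cluster 3, where the endothelial claudin gene Cldn5 measured 0 and 3.55 CPM.

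Sub-cluster 2 stood apart from the other 3. It held 9, 8 and 50 cells, which was 11.7% [5.49 to 21.0], 10.7% [4.72 to 19.9] and 25.1% [19.3 to 31.7] of the mesenchymal cells. The knockout interval overlapped both wild-type intervals. It was led by genes of neural progenitors of the hem and cortex, namely Wnt8b, Lhx2, Dmrta2, Sox2 and Rspo3. Its cells had a median of 24168, 24081 and 21041 UMIs, and the doublet score marked 6, 2 and 35 of them, against at most 1 cell in each other sub-cluster of a library. The median neural progenitor RNA, summed over 9 genes, was 8.51, 7.64 and 13.4 UMIs per 10000 in sub-cluster 2 and at most 2.52 in any other sub-cluster. Lum was lower in these cells, with 735 CPM in wild type and 239 CPM in knockout. They carried 49.9% of the mesenchymal UMIs in the knockout and 18.4% in the wild type.

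**Figure D2:**
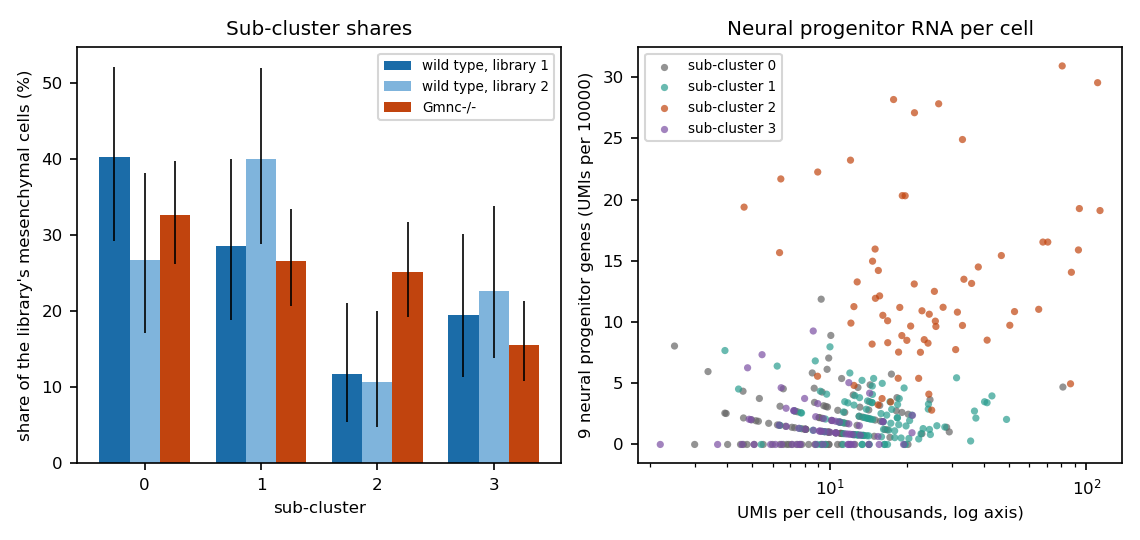
Left, share of each library's mesenchymal cells in the 4 sub-clusters, with exact 95% intervals of counting error as error bars. Right, summed UMIs of 9 neural progenitor genes per 10000 UMIs against the UMIs per cell on a log axis, 1 point per cell; most cells of sub-cluster 2 lie above the others.

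A further cell of the knockout library, in sub-cluster 0, had 81042 UMIs, among them 82 of Pecam1 and Cldn5, 59 of Flt1 and 96 of Kdr, genes of endothelium, and no Lum. No other mesenchymal cell had more than 1 UMI of Pecam1, Cldn5 and Flt1 together. In the second wild-type library and in the knockout, 1 cell each held at least 2000 haemoglobin UMIs per 10000. Counts of called genes are therefore given over all 351 cells and over 281 core cells (68, 66 and 147), which leave out sub-cluster 2 and these 3 cells. The core was set after the values had been seen. Levels given by sub-cluster leave out these 3 cells too.

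**Figure D3:**
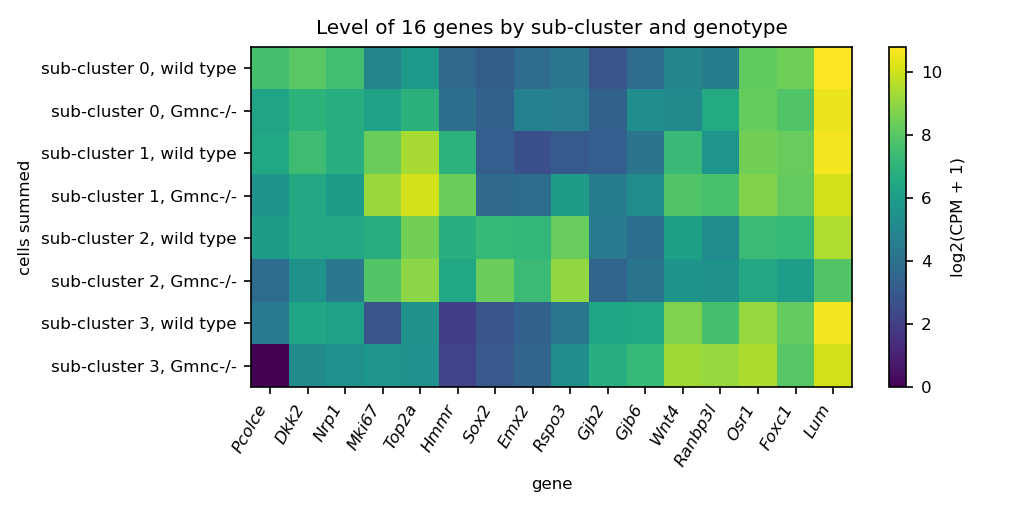
Level of 16 genes, as log2(CPM + 1) by colour, in each sub-cluster with the cells of a genotype summed. Within each genotype, Pcolce is brightest in sub-cluster 0, Mki67 and Top2a in sub-cluster 1, Sox2, Emx2 and Rspo3 in sub-cluster 2, and Gjb2, Gjb6, Wnt4 and Ranbp3l in sub-cluster 3.

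The mesenchymal share was larger in the knockout library. It was 0.813% [0.642 to 1.02] and 0.919% [0.724 to 1.15] in the wild-type libraries and 1.29% [1.12 to 1.49] in the knockout. The core cells made up 0.718%, 0.809% and 0.956%. The core interval of the knockout (0.808 to 1.12) overlapped both wild-type intervals, and all shares depend on how the tissue was cut.

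The check of the targeted gene was weak in these cells, where few UMIs of it were found. Gmnc (chromosome 16, 26913553 to 26991652) measured 18.2, 0.782 and 7.78 CPM over all mesenchymal cells and 2.3, 0.959 and 3.16 CPM in the core, and 29.9, 31.4 and 43.1 CPM in the other cells, where the library labelled knockout was not lower. Reads from 3' ends outside a deletion check nothing, and which exons the allele removes was not known here.

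Over all mesenchymal cells, 338 of 6945 genes (4.87%) were called higher in the knockout and 201 (2.89%) lower. A call needed at least 2-fold against each wild-type library, intervals that did not overlap, and a level of at least 50 UMIs and 20 CPM in the genotype where the gene was higher. Among the called genes, 163 higher and 48 lower ones shifted at least 2-fold in the same direction in the other cells too. Several genes with large ratios over all cells had small ones in the core. Grem1, a Bmp antagonist gene, measured 0, 0 and 66.7 CPM over all cells and 0, 0 and 0.633 CPM in the core, and its 223 knockout UMIs came from 2.01% of the knockout cells. Pax6, a neural progenitor factor, measured 9.99, 10.2 and 83.2 CPM over all cells and 4.59, 2.88 and 8.23 CPM in the core. Sox2, another such factor, measured 42.7, 27.4 and 168 CPM over all cells and 8.03, 7.67 and 10.1 CPM in the core. In the core none of these 3 genes was called. Among called genes without a 2-fold shift in other cells, none of the 12 with the largest higher ratios over all cells was called in the core; beside Grem1 and Pax6 these were Limch1, Igfbp5, Pou3f3, Pcsk1n, Rassf4, Lix1, Nckap5, Pantr1, Lrp8 and Nedd9. Of the 12 with the largest lower ratios by the same rule, all but Calca, Dkk1 and Syndig1 were called in the core. Among them, the secreted kinase gene Pkdcc measured 77.2, 81.3 and 20.1 CPM over all cells and 87.2, 85.4 and 31 CPM in the core. A total of 209 genes were called higher over all cells and not in the core. For these, sub-cluster 2 held a median of 81.4% of the knockout UMIs, beside 49.9% over all genes. They were picked by losing their call without the set-aside cells, so a high share follows largely from that choice.

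**Figure D4:**
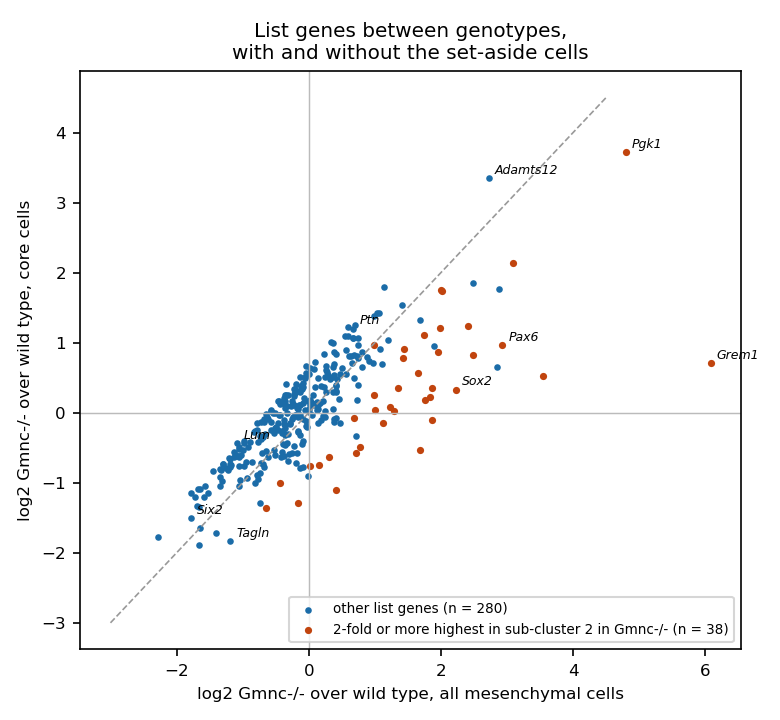
The log2 ratio of knockout to wild type of list genes over all mesenchymal cells (horizontal) and over the core (vertical), with the line of equality dashed. The 38 genes that were at least 2-fold highest in sub-cluster 2 had a median of 1.55 over all cells and 0.29 in the core. The other 280 genes had -0.20 and near 0. Those 38 were picked by their knockout level in sub-cluster 2, so their fall in the core is a description.

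In the core, 175 of 5650 genes (3.1%) were called higher in the knockout and 111 (1.96%) lower, and 129 and 78 of these were also called over all cells. A shift of at least 2-fold in the same direction was seen in the other cells for 116 of the higher and 38 of the lower genes, which leaves 59 and 73 without one. With another scaling of the totals (TMM) the counts were 211 and 85. Of 11 stress genes 2 were called higher in the core and none lower, with a median log2 ratio of -0.04 and a summed level over the list of 5731, 5693 and 4925 CPM. Fos measured 63.1, 42.2 and 139 CPM in the core and Egr1 59.7, 74.8 and 235 CPM. Of 7 haemoglobin genes 5 were called higher, among them the embryonic gene Hbb-y at 171, 473 and 1137 CPM. The part of haemoglobin and of these stress genes in the other calls was not tested. Some genes were called in the core and not over all cells. Of those given below these were Ptn, Timp3, Cldn11, Slc6a13, Robo1, Hmmr and Bora among the higher genes and Tagln, Tmeff1, Kti12 and Prps1 among the lower ones, and the same held for Fos and Egr1.

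Mesenchymal transcription factors were lower where they were called. Of 29 factors deep enough in the core, 4 were called lower and none higher, and the list's median log2 ratio was -0.26, beside -0.13 over all genes. Tbx18 (chromosome 9, 87702800 to 87731260), a T-box factor of mural and meningeal precursors, measured 192, 190 and 89.2 CPM, a ratio of 0.471 [0.383 to 0.57]. The knockout lay below both wild-type libraries, which differed by less than counting error. It was called under 5 of 8 other settings tried on the core. Snai1, a repressor of epithelial genes, measured 66.6, 67.1 and 29.7 CPM, and Six2, a homeodomain factor of head mesenchyme, 29.8, 42.2 and 12 CPM, the latter called under 2 of those 8 settings. Msx2, a target of Bmp signalling, measured 34.4, 50.8 and 10.8 CPM, but it shifted in the other cells too, by -1.16 on the log2 scale. Foxc1 was nearer to level, with 301, 333 and 265 CPM. Twist1 missed the 2-fold limit at 270, 282 and 173 CPM.

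The matrix was split. Over all cells 4 of 22 collagen and processing genes were called lower, and in the core 2 were, with a median log2 ratio of -0.01. The core levels of Col1a1 were 982, 970 and 998 CPM and those of Col1a2 1298, 1280 and 1639 CPM, so that the lower values of the knockout over all cells (602 CPM for Col1a1) were absent from the core. Col3a1 stayed below wild type in the core, with 2703, 2467 and 1656 CPM, but under the 2-fold limit. Called lower in the core were Pcolce, at 117, 109 and 48.7 CPM, and Serpinh1, the collagen chaperone gene, at 2035, 2054 and 987 CPM. The wild-type repeats of both genes agreed within counting error and the knockout interval lay far below. The Serpinh1 ratio was 0.483 [0.455 to 0.512], and the other cells shifted in the same direction by -0.77 on the log2 scale. Serpinh1 fell short of 2-fold under 4 of 8 other settings tried on the core. Fbln1, which encodes the matrix glycoprotein fibulin, was the only interstitial matrix gene of 16 called lower, at 951, 974 and 418 CPM. None of the 15 basement membrane genes was called in either direction.

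Of the 111 genes called lower in the core, 12 were among the 276 list genes deep enough, beside 1.96% called lower over all genes. Pth1r and Ptx3 were in no list. Pth1r, the parathyroid hormone receptor gene, measured 139, 129 and 41.1 CPM, a ratio of 0.313 [0.231 to 0.407]. Ptx3, a secreted pentraxin gene, measured 90.7, 127 and 31 CPM. Tagln, an actin-binding protein gene of smooth muscle, measured 39, 65.2 and 13.9 CPM in the core (36.3, 57.9 and 20.1 CPM over all cells), and Ackr3, the scavenging receptor gene for Cxcl12, 37.9, 41.2 and 15.2 CPM. In all 4 the knockout lay below both repeats. Cxcl12 itself was level, with 270, 261 and 254 CPM. Efna2, an ephrin gene, measured 66.6, 58.5 and 18.4 CPM, with a shift of -1.09 on the log2 scale in other cells. Further genes named by the rule were Tmem51, Dctd, Kti12, Prps1, Slc30a7, Mn1, Tmeff1, Trabd and Tusc2, with core ratios from 0.211 for Tmem51 to 0.343 for Tusc2.

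Of the 175 genes called higher in the core, 20 were among the 276 list genes deep enough, beside 3.1% called higher over all genes. These 20 include 5 haemoglobin genes and 2 stress genes. They also include 2 of 11 protease genes, 2 of 14 meningeal layer genes and 1 of 18 growth factor genes. Counts this small say little about a list as a whole. Adamts12 (chromosome 15, 11064790 to 11349231), a secreted metalloprotease gene, measured 6.89, 15.3 and 123 CPM, a ratio of 10.2 [6.86 to 17.4]. It was higher in the other cells too, by 1.06 on the log2 scale but at only 1.22 CPM. Pgk1, a glycolysis gene, measured 12.6, 9.59 and 158 CPM, and 22, 18.1 and 542 CPM in the other cells, so that its shift ran through the whole library. The libraries were counted against different feature sets, and the part of that in the Pgk1 values was not tested. Timp3, a metalloprotease inhibitor gene, measured 42.5, 39.3 and 86.7 CPM. Of 14 meningeal layer genes 2 were called higher and none lower: Slc6a13, a GABA and taurine transporter gene, at 12.6, 10.5 and 32.9 CPM, and Cldn11, a tight junction gene of the arachnoid barrier, at 68.9, 75.8 and 156 CPM (63.6, 68 and 99.4 CPM over all cells). Neither shifted in the other cells, where the log2 ratios were -0.08 and -0.15. Of 8 other settings tried on the core, Slc6a13 was called under 7 and Cldn11 under 6. Against the wild-type core cells without a YFP UMI, described below, the log2 ratio of Cldn11 was 0.87, which is under 2-fold.

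Ptn, the heparin-binding growth factor pleiotrophin, measured 580, 543 and 1292 CPM in the core, a ratio of 2.3 [2.14 to 2.49], and 532, 485 and 811 CPM over all cells. Igf2 stayed just under 2-fold, with 461, 462 and 923 CPM, and was not called. Robo1, a Slit receptor gene, measured 27.5, 29.7 and 68.4 CPM, and Cdkn1b, a cell cycle inhibitor gene, 14.9, 19.2 and 51.3 CPM. All of these knockout values lay above both wild-type values. Nfix, a nuclear factor I gene, measured 28.7, 25.9 and 65.8 CPM. The largest ratios by the naming rule were those of Tex15 (4.59, 4.8 and 39.9 CPM), Plxna2, a plexin gene (6.89, 14.4 and 42.4 CPM), and Slc7a11, a cystine transporter gene (40.2, 40.3 and 148 CPM). Ranbp3l, a marker of sub-cluster 3, measured 64.3, 69.1 and 230 CPM, and Camk2n1, a kinase inhibitor gene, 70, 63.3 and 214 CPM. Also named were Crybg3, Tmem2, Tspyl4, Rspo3, Bora and Pdcd4, with ratios of 2.9 to 3.57; 26.1% of the Rspo3 UMIs in the knockout core came from 1 cell.

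**Figure D5:**
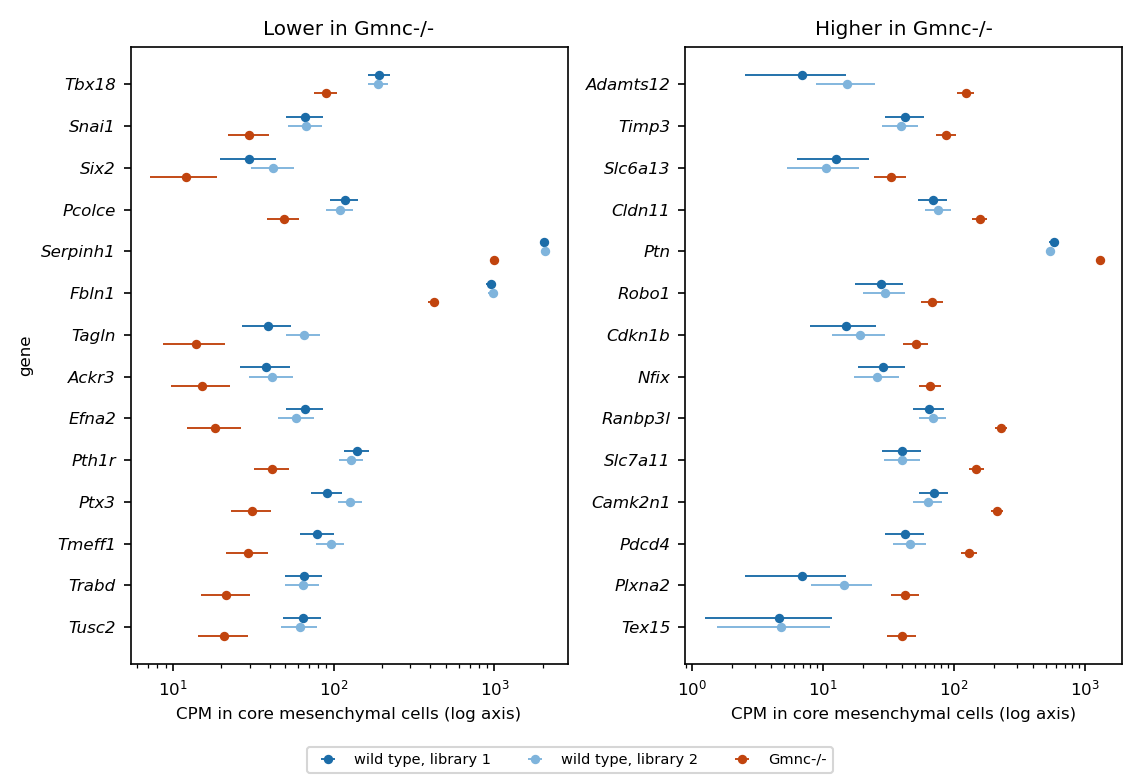
Core level of 14 genes called lower (left) and 14 called higher (right) in the knockout, in CPM on a log axis, with exact 95% Poisson intervals as bars. In every row the knockout point and its bar lie outside the bars of both wild-type libraries.

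The differences recurred inside sub-clusters 0, 1 and 3. Of the 175 genes called higher in the core, 167 were higher in all 3 sub-clusters, and 111 were so by at least 2-fold. All 111 genes called lower were lower in all 3, and 56 by at least 2-fold. Tbx18 measured 204 CPM in wild type and 99.1 CPM in knockout in sub-cluster 0, 194 and 86.3 CPM in sub-cluster 1, and 156 and 78 CPM in sub-cluster 3. Snai1 differed most in sub-cluster 3, with 73.5 and 3.55 CPM. Slc6a13 likewise had its largest difference there, with 6.13 and 74.5 CPM. The lower value of each rests on very few UMIs in a sub-cluster of 15, 17 and 31 cells, so the size of these differences is uncertain. Weighting each cell equally kept the direction of all 175 and all 111 genes and left 163 and 103 at 2-fold or more. These counts rest on the same UMIs as the calls, so they are a description and no further evidence.

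The share of core cells with cell cycle genes overlapped between genotypes within counting error, while some levels did not. After thinning to 4000 UMIs, 48.5%, 53.8% and 59.6% [51.0 to 67.7] of the core cells had a UMI of Mki67 or Top2a, with 2, 1 and 6 cells too shallow for this step. Over all cells the shares were 50.7%, 51.4% and 64.8%, and without thinning those of the core were 64.7%, 71.2% and 61.2%, so the order of the genotypes turned with the depth used. Mki67, a gene of dividing cells, measured 165, 186 and 309 CPM in the core and Top2a, a topoisomerase gene, 327, 390 and 560 CPM; the knockout lay above the intervals of both wild-type libraries but under 2-fold. Of 21 genes of the G2 and M phases, only Hmmr, a spindle protein gene, was called higher in the core, at 64.3, 71 and 163 CPM. Of 18 S phase genes only Pcna was, at 35.6, 28.8 and 82.3 CPM, and it was higher in the other cells as well.

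Reporters bear on the stage mix of the wild type. A YFP UMI, from the transgene of the E11.5 embryos, was found in 57.1% [45.4 to 68.4] and 61.3% [49.4 to 72.4] of the mesenchymal cells and in 65.6% and 65.9% of all other cells. Erythroid cells, which come from the same embryos and can carry the transgene, had one in 58.7% and 54.6% at median depths of 16813 and 18643 UMIs, so that the share of cells with YFP from free RNA was not measured. A tdTomato UMI was found in 10.4% and 13.3%, beside 14.3% and 14.2% of all other cells. With at least 2 tdTomato UMIs the shares dropped to 0 of 77 cells and 1 of 75 cells, so single UMIs carried nearly all of the tdTomato signal; erythroid cells held at least 1 in 4.44% and 7.22%. Both reporters were seen in 4 cells of each library.

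Among the wild-type core cells, 74 had a YFP UMI and 60 had none. The group without one holds E12.5 cells and those E11.5 cells in which YFP was missed, and its median depth was 13224.5 UMIs, beside 12364.5 with YFP. Of 5444 genes, 9 were at least 2-fold higher without YFP and 22 lower, with intervals that did not overlap. Pcolce was higher without YFP (155 CPM against 75.1 CPM) and so was Tagln (77.6 against 31.6 CPM), while the E12.5 knockout core was lower than both for each gene. Tbx18 measured 176 CPM with YFP and 207 CPM without, and Adamts12 7.9 and 15.5 CPM. For these 4 genes the knockout level lay outside the range of the YFP groups. They were already called in the core against the same wild-type cells, so this is no further evidence. Cldn11 measured 61.2 CPM with YFP and 85.4 CPM without, and Slc6a13 8.89 and 14.4 CPM. For both, the level without YFP was the nearer one to the knockout core (156 and 32.9 CPM). Against the wild-type core cells without YFP, 163 genes were called higher and 66 lower of 4223 covered. Against all wild-type core cells the counts were 175 and 111 of 5650. The part of stage in these counts was not tested.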

How the data were processed

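Droplet 3' single-cell RNA libraries were analysed from UMI count matrices deposited by the authors. Per the file headers they were made with Cell Ranger 3.1.0 (wild type) and 6.0.0 (knockout), and per the submitters' processing notes with 3.1.0 on mm10, the GRCm38 assembly; no label or header used here names the annotation release. The matrices held 28001 and 32285 features, of which 27040 Ensembl IDs were shared and used, and 26963 of these matched GENCODE vM21. The deposited counts summed to 148073906, 139978761 and 259403297 UMIs over 12426, 10399 and 20256 barcodes.

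Cells were kept at 1000 genes, 2000 UMIs and 10% mitochondrial UMIs. Doublets were scored by simulation (2 per cell, 30 principal components) at 0.8% per 1000 barcodes and kept unless stated. Raw counts of the mesenchymal cells were summed per library and scaled to CPM with a pseudocount of 1 CPM in ratios. The wild-type libraries are repeats of 1 suspension and were averaged, so no p-value was computed, and intervals cover counting error only. Sub-clusters came from the Leiden algorithm at resolution 0.5 (1500 genes, 15 components, 15 neighbours), after scaling within each genotype. The calling procedure was run on simulated Poisson counts drawn from the pooled wild-type profile with known fold changes. These counts held no variation between cells or suspensions, so the run cannot show how the calls behave under such variation.

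The members and lists were chosen with earlier results of these data known. Against other cells, the 30 genes with the largest smallest ratio over the libraries were named. Between genotypes, the 12 with the largest ratios in each direction were named, if called and not shifted at least 2-fold the same way in other cells. Mitochondrial, ribosomal, haemoglobin, sex-linked and provisional genes were left out, and list members could be named. The same rule was applied to the core. Alternatives covered the collagen minimum, doublets, expression minimums, pseudocount, scaling, each wild-type library, YFP-free wild-type cells, clustering and thinning. Python 3.11.15, numpy 2.4.6, scipy 1.17.1, pandas 2.3.3, scikit-learn 1.9.0, python-igraph 0.11.9 and leidenalg 0.10.2 were used.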

Additional observations from a re-analysis of the deposited data

How the results depend on the processing

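The share of mesenchymal cells in the knockout was 1.03% with a collagen minimum of 20 UMIs; without sub-cluster 2 it was 0.969% and in the core 0.956%, beside 0.770% and 0.764% in wild type. Genes higher than in other cells numbered 1042 with no expression minimum and 184 with 100 UMIs and 50 CPM. Those lower numbered 596 and 106 under these settings, 372 with doublets removed, 460 without sub-cluster 2 and 472 in the core. Genes higher in the knockout numbered 185 without sub-cluster 2, 175 in the core and 174 with the stricter minimum. Genes lower numbered 131 with doublets removed, 112 without sub-cluster 2, 111 in the core, 112 with the stricter minimum and 130 against wild-type cells without YFP. List genes higher numbered 29 to 38 when a wild-type replicate was left out, and list genes lower numbered 14 with doublets removed, 12 without sub-cluster 2 or in the core, and 21 with the stricter minimum. The log2 ratio of Cdh2 turned to -0.14 in the core, and that of Rspo1 to -0.48 without sub-cluster 2 and -0.53 in the core. Leaving haemoglobin, mitochondrial and ribosomal genes out of the total moved the median log2 ratio of all genes from -0.05 to 0.06. In the core, 61.2% of the calls were higher, and 71.0% to 71.3% under median-ratio scaling, TMM scaling and that total. Resolution 1 and scaling over all cells each gave 7 sub-clusters. The share with cell cycle UMIs was 42.1% and 47.2% (wild type and knockout) at 2000 UMIs, and 69.1% in wild type without thinning. At 2 UMIs, 49.4% of wild-type cells had YFP and 0.667% tdTomato. The causes were not tested, apart from the fewer genes or cells that these settings leave. Of the alternative values for single genes, 1350 kept their call or lack of one and their direction, 265 lost a call, 46 gained one and 3 reversed. No paired analysis was possible because the genotypes were separate suspensions of different embryos and the wild-type libraries are technical repeats. The 351 cells and 1 suspension per genotype limit all comparisons between genotypes.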
